A study of Solanum tuberosum with 11 samples.

Results

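A group of 273 potato transcripts more than doubled over the DMSO control by the condition called NG 5-Days and still stood at 1.7 times the control or more in NG 7-Days. They were selected on their listed levels alone, out of 35091 transcripts. A member had a level of at least 5 in NG 5-Days and at least 2 times its control level there. In NG 7-Days it stood at no less than 1.7 times the control and above 0.5 of its own NG 5-Days level, and in NG 1-Day above 0.25 of the control. Transcripts that the authors' deposited table marks as too abundant to process, 5 in all, were set aside, and none of the 5 would have met the conditions. Because the levels chose the members, those levels and their ratios are a description and carry no test of their own.

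RNA was sequenced from thin periderm discs carrying the apical bud of dormant minitubers grown in a greenhouse, from Solanum tuberosum cultivar Atlantic. Tubers received 10 µg of NG, spelled 1-(alpha-ethylbenzy)-3-nitroquanidine in the labels, in 5 µl of DMSO, or 5 µl of DMSO alone. The labels list 3 NG libraries at day 1, 2 at day 4 and 3 at day 7, and 3 DMSO libraries at zero time, 11 in all. The deposited table instead has 1 condition named Controls and conditions named NG 1-Day, NG 5-Days, NG 7-Days, with 1 level per transcript and condition. No label names a day 5, so NG 5-Days keeps the table's name and was not equated with day 4. Every later tuber had NG and every control was taken at zero time, so NG and elapsed time cannot be told apart. The discs are bulk tissue, in which more cells of a type and more RNA per cell cannot be told apart either.

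Potato tubers pass through a period of dormancy after harvest in which their buds do not grow. NG belongs to the nitroguanidines with cytokinin-type activity, and cytokinins are plant hormones that promote cell division and the outgrowth of buds. The identifiers in the deposited table come without gene names, and 0 of them could be found among 32873 RefSeq genes (assembly SolTub_3.0). Members are therefore given by chromosome and position, in the coordinates of the deposited table, with no genome build named by the sources. No function can be attached to any member. Markers of the tissue could not be checked for the same reason.

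The members were low before treatment, lower still at the first NG time, and highest in NG 5-Days. Their median level was 4.65 in Controls, 2.60 in NG 1-Day, 13.3 in NG 5-Days and then 9.35 in NG 7-Days, all from the authors' deposited table, whose header names no unit. The middle of the group, from the lower to the upper quartile, lay between 2.81 and 9.59 in Controls, 1.54 and 5.53 in NG 1-Day, 8.07 and 27.3 in NG 5-Days, and 5.30 and 19.0 in NG 7-Days. The levels of single members spread far more widely than their ratios to the control. In NG 5-Days the levels ran between 5.15 and 742, while the ratio to the control ran between 2.01 and 5.03. By level in NG 5-Days, 98 members lay between 5 and 10, 110 between 10 and 30, 40 between 30 and 100, and 25 at 100 or more.

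**Figure D1:**
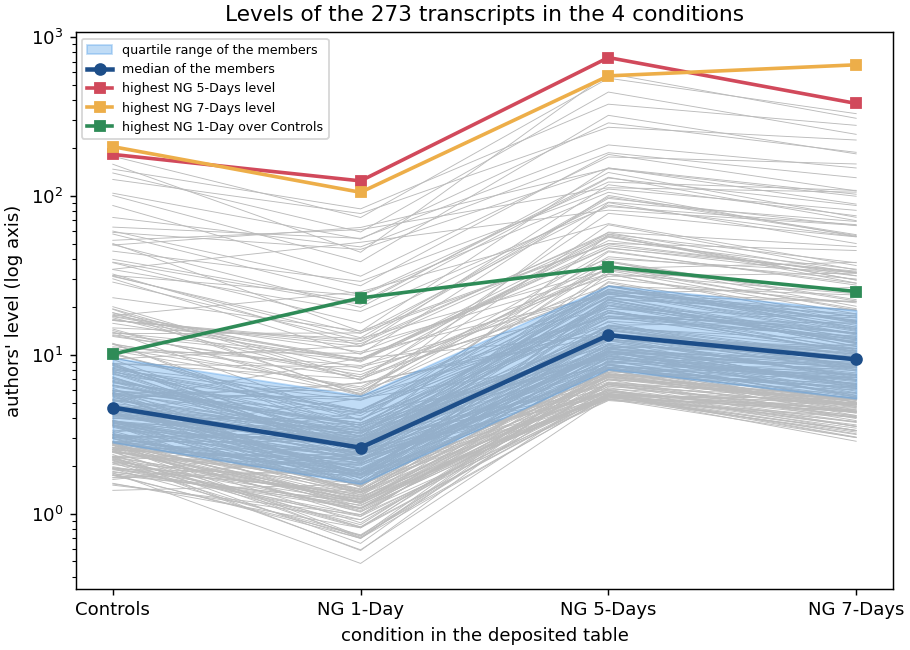
Levels of the 273 members in Controls and then NG 1-Day, NG 5-Days and NG 7-Days, on a log axis, 1 thin line per member, from the authors' deposited table, which has no replicate values. The thick line is the median, the band the quartile range, and 3 members with extreme values are coloured. The medians are 4.65, 2.60, 13.3 and 9.35, so the group dips in NG 1-Day, peaks in NG 5-Days and stays above the control in NG 7-Days.

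One order of the conditions took in most of the group. In 239 members (87.5%) NG 1-Day was lowest, then the control, then NG 7-Days, with NG 5-Days highest. In another 11 NG 7-Days was above NG 5-Days, with NG 1-Day again below the control. The 23 others had NG 1-Day above the control. Among the 11977 other transcripts with a level of at least 5 in NG 5-Days, 21.3% had that first order. The difference in share was not tested, since the conditions for membership fix part of the order.

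Summed over all members, the level was 3744 in Controls, 2091 in NG 1-Day, 11158 in NG 5-Days and then 7520 in NG 7-Days. These sums are 0.591%, 0.325%, 1.82% and 1.19% of the sum over all transcripts in the same condition. The 10 members highest in NG 5-Days held 39.1% of the members' sum there and 37.5% of it in Controls. Without those 10, the sum was 0.589 times the control in NG 1-Day, 2.90 times in NG 5-Days and 1.95 times in NG 7-Days, against 0.558, 2.98 and 2.01 times with them. The ratios were thus close with and without the most abundant members. The limits of membership alone put any such sum above the control in NG 5-Days and NG 7-Days.

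In NG 5-Days against Controls, 35 of the 258 tested members rose at an adjusted p under 0.05 in the authors' deposited test, and 165 had an unadjusted p under 0.05. Of the tested other transcripts with a level of at least 5 in NG 5-Days, 7.69% had an unadjusted p under 0.05, in either direction. Of all 20223 transcripts tested in that comparison, 0.648% were called higher. The conditions for membership used this comparison, so nothing is read from the members' count. The deposited adjustment runs over all 6 comparisons together, and adjusting NG 5-Days against Controls alone left 6 members called, where 0.114% of all tested transcripts were. The median log2 fold change of the members was 1.56, against 0.01 for all tested transcripts, and 0.92 with a pseudocount of 5 added to the levels. The median standard error that the deposited test used was 0.71 in members and 0.60 in all transcripts, on the log2 scale. At those errors a fold change had to reach 4.34 in a member, and 3.42 in a transcript with the median error of the whole table, to be called.

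The greatest called rise belonged to PGSC0003DMG400024725 on chromosome 1, at 70643527 to 70645202. In the authors' deposited table its level was 11.8 in Controls, 3.02 in NG 1-Day, 57.0 in NG 5-Days and then 29.5 in NG 7-Days. It stood at 0.256 of the control in NG 1-Day, close to the lower limit set for membership. Its log2 fold change in NG 5-Days over Controls was 2.27, with a standard error of 0.64 (authors' deposited test, adjusted p = 0.0101).

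PGSC0003DMG400033044 on chromosome 6, at 46584531 to 46585393, came next. The authors' deposited table lists it at 19.3 in Controls, 5.57 in NG 1-Day, 90.6 in NG 5-Days and then 50.1 in NG 7-Days. It followed the same course as the first, at a higher level in every condition. Its log2 fold change in NG 5-Days over Controls was 2.23, with a standard error of 0.74 (authors' deposited test, adjusted p = 0.0452).

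The next 4 called rises had log2 fold changes between 1.96 and 2.06. They lie on chromosome 8 at 39582237 to 39585443, chromosome 11 at 3324144 to 3325559, chromosome 10 at 43845046 to 43847786 and chromosome 1 at 55723928 to 55730479. In the authors' deposited table the one on chromosome 8 was at 13.3 in Controls, 9.16 in NG 1-Day, 55.5 in NG 5-Days and then 29.5 in NG 7-Days. The one on chromosome 10 was at 6.91, 3.16, 26.9 and 14.2 in the same order of conditions, and the one on chromosome 1 at 5.71, 1.46, 22.2 and 11.3. In NG 7-Days all 3 stood at a little over 0.5 of their NG 5-Days level. They differed in the dip before it, which was shallow on chromosome 8 and deep on chromosome 1.

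The members called higher were the more abundant ones. The 35 members called higher had a median level of 57.0 in NG 5-Days, against 10.8 in the members tested and not called. Their median ratios to the control were 3.49 and 2.84, and their median standard errors 0.52 and 0.74 on the log2 scale. Of tested members with a level of at least 100 in NG 5-Days, 14 of 22 were called, and of those between 10 and 30, 9 of 106. Under a level of 10 none of the 96 tested members was called. Of all tested transcripts, at any level, 0.648% were called higher in this comparison, which membership itself used. Shares by level were not counted for them.

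Both members with the largest folds of the whole group were left uncalled. They were chosen for mention after their values were seen. The member on chromosome 1 at 79852294 to 79852869 was 5.03-fold higher in NG 5-Days than in Controls (24.9 against 4.95 in the authors' deposited table), with a log2 standard error of 0.85 (authors' deposited test, adjusted p = 0.0869). The member on chromosome 1 at 57595943 to 57606169 was 4.87-fold higher (8.60 in NG 5-Days against 1.76 in Controls), with a standard error of 0.86 (authors' deposited test, adjusted p = 0.108). At the other end, the member on chromosome 6 at 2324135 to 2325840 rose by 2.54-fold, with a standard error of 0.42 (authors' deposited test, adjusted p = 0.0260). The smallest fold called was thus well under the largest fold that was not.

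**Figure D2:**
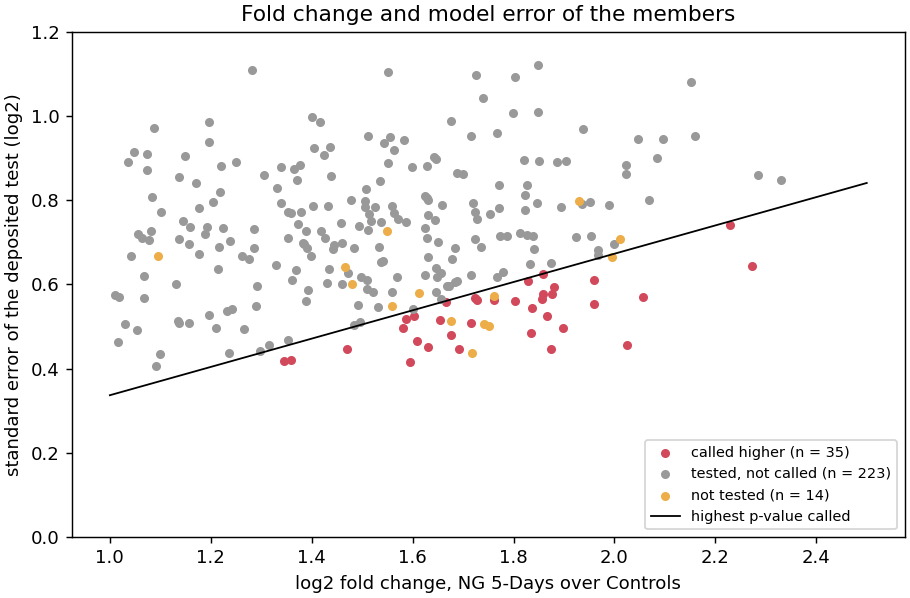
Log2 fold change of NG 5-Days over Controls against the standard error that the authors' deposited test used, for the 272 members that have one, coloured by call; the line marks the highest p-value called. The 35 called members sit at lower errors, with a median of 0.52, than the members tested and not called, with a median of 0.74.

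The most abundant member in NG 5-Days was PGSC0003DMG402015689 on chromosome 11, at 3324144 to 3325559. The authors' deposited table gives it 182 in Controls, 124 in NG 1-Day, 742 in NG 5-Days and then 381 in NG 7-Days. Its rise in NG 5-Days over Controls had the smallest adjusted p of the members named here, 0.000391, in the authors' deposited test. Whether the deposited levels are scaled to transcript length is not stated in the sources, so levels of different members are set side by side only as listed.

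PGSC0003DMG400000277 on chromosome 12, at 4457674 to 4463918, was the one of the 6 most abundant members that stood highest in NG 7-Days. The authors' deposited table lists it at 204 in Controls, 105 in NG 1-Day, 569 in NG 5-Days and then 668 in NG 7-Days. The other 5 were all highest in NG 5-Days. The table marks it as not tested in NG 5-Days against Controls, and NG 7-Days against NG 5-Days gave a log2 fold change of 0.23 with a standard error of 0.57 (authors' deposited test, adjusted p = 1.00).

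The other 4 of the 6 most abundant members all rose in NG 5-Days against Controls in the authors' deposited test, with adjusted p between 0.00384 and 0.0242. They lie on chromosome 4 at 5326776 to 5327333, chromosome 6 at 50100428 to 50101098, chromosome 11 at 36433766 to 36434441 and chromosome 2 at 43926144 to 43928187. The one on chromosome 4 had the deepest dip of the 6. It was listed in the authors' deposited table at 158 in Controls, 44.1 in NG 1-Day, 589 in NG 5-Days and then 308 in NG 7-Days. The one on chromosome 6 was at 177, 73.0, 550 and 329 in the same order, the one on chromosome 11 at 139, 59.2, 450 and 244, and the one on chromosome 2 at 147, 82.8, 377 and 278. All 4 were lowest in NG 1-Day and highest in NG 5-Days. That on chromosome 2 kept the largest part of its NG 5-Days level in NG 7-Days.

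In NG 1-Day, 250 of the 273 members (91.6%) were listed below their control level, where the NG 1-Day limit of membership asked only that they stay above 0.25 of it. Among the 11977 other transcripts with a level of at least 5 in NG 5-Days, 54.7% were below. The members' median ratio of NG 1-Day to Controls was 0.543, against 0.986 in those others. The ratio lay between 0.25 and 0.5 in 117 members, between 0.5 and 0.8 in 116, between 0.8 and 1.25 in 28 and above 1.25 in 12. A lower level in NG 1-Day was thus common to most of the group, and its depth varied widely. In 72.2% of the other transcripts the control lay within 10% of the mean of NG 1-Day and NG 7-Days. Where that holds, the limit on NG 7-Days over Controls also bears on NG 1-Day. The lower level is therefore not a trait independent of the rule, and how much of it the rule brings was not tested.

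Few of these lower levels passed the authors' deposited test. Of 261 tested members, 4 fell in NG 1-Day against Controls at an adjusted p under 0.05, where 1.03% of all tested transcripts were called lower, and 44 had an unadjusted p under 0.05. None was called higher, where 0.0256% of all tested transcripts were, and none was higher at an unadjusted p under 0.05. Of the tested other transcripts with a level of at least 5 in NG 5-Days, 2.75% had an unadjusted p under 0.05, in either direction. A member with the median error had to be 4.75-fold lower to be called, which is past the 4-fold limit that membership itself set. The count of falls is therefore bounded by the choice of members. With the comparison adjusted alone, no member was called lower, where 0.420% of all tested transcripts were.

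The 4 members that fell in NG 1-Day are spread over 3 chromosomes, and were chosen for mention because they were called. They include the abundant member on chromosome 4 at 5326776 to 5327333 (authors' deposited test, adjusted p = 0.0127). In the authors' deposited table the member on chromosome 9 at 46752194 to 46753254 was at 14.0 in NG 1-Day against 50.1 in Controls (adjusted p = 0.0145), and the one on chromosome 9 at 6664290 to 6669767 at 5.64 against 18.4 (adjusted p = 0.0267). The member on chromosome 7 at 2190772 to 2196792 was at 2.55 in NG 1-Day against 9.35 in Controls (authors' deposited test, adjusted p = 0.0392). All 4 were between 0.27 and 0.31 of the control. Membership itself puts every member above the control in NG 5-Days.

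The lowest ratio of NG 1-Day to Controls among the members was 0.255, on chromosome 6 at 43183697 to 43187632. The authors' deposited table lists that member at 8.64 in Controls, 2.20 in NG 1-Day, 22.2 in NG 5-Days and then 19.3 in NG 7-Days. It kept most of its NG 5-Days level in NG 7-Days, whereas the 3 next lowest kept little more than 0.5 of theirs. Those 3 are the greatest called rise on chromosome 1 at 70643527, the member on chromosome 1 at 55723928, and one on chromosome 3 at 44348729 to 44352393. The last was listed at 2.81, 0.721, 9.28 and 4.87 in Controls and then NG 1-Day, NG 5-Days and NG 7-Days of the authors' deposited table.

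A small set went the other way in NG 1-Day, and none of it passed the deposited test in that comparison. The highest ratio to the control was 2.26, on chromosome 5 at 42195193 to 42195750, where the authors' deposited table has 10.1 in Controls, 22.8 in NG 1-Day, 35.7 in NG 5-Days and then 25.0 in NG 7-Days. The member on chromosome 1 at 79837701 to 79838572 was at 5.06, 9.52, 13.3 and 10.1 in the same order, and the one on chromosome 11 at 34159222 to 34166063 at 2.53, 4.33, 8.37 and 4.40. That on chromosome 7 at 32007409 to 32011583 was at 1.73, 2.95, 5.70 and 4.87, and is the one member that the authors' deposited table marks in every comparison as having too little data. These 4 had reached a good part of their NG 5-Days level by NG 1-Day. Of the 23 members above the control in NG 1-Day, 12 of the 16 tested rose further in NG 5-Days against NG 1-Day. None of the 14 tested was called in NG 7-Days against NG 1-Day. Of all tested transcripts, 13.1% and 7.44% were called higher in these comparisons. Both comparisons use NG 1-Day, whose level picked these 23, so nothing is read from the counts.

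In NG 7-Days the members kept part of their NG 5-Days level, and seldom all of it. The median ratio of NG 7-Days to NG 5-Days was 0.661, within a range of 0.50 to 1.17 whose lower end is the limit set for membership. The ratio was under 0.6 in 98 members and 0.8 or more in 55, and 11 members stood higher in NG 7-Days than in NG 5-Days. Against Controls the median ratio was 1.91 in NG 7-Days, against 2.94 in NG 5-Days. In NG 7-Days 87 members were at 2 times the control or more, 15 at 2.5 times or more and 4 at 3 times or more. The rule itself puts every member above the control in NG 7-Days, so these ratios do not test the working description of a rise that was kept. In 262 members the level was past its highest by NG 7-Days.

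**Figure D3:**
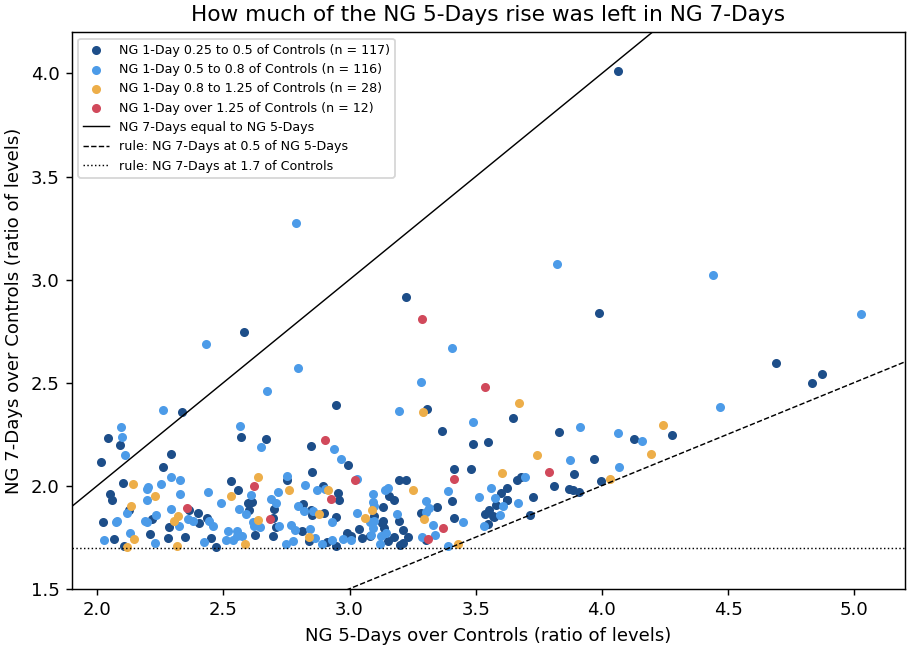
Ratio to Controls in NG 7-Days against the ratio to Controls in NG 5-Days for each of the 273 members, on linear axes, from the authors' deposited table, coloured by the ratio of NG 1-Day to Controls. The solid line marks equality and the broken lines the limits of the rule; most points lie below equality: the median ratio is 2.94 in NG 5-Days and then 1.91 in NG 7-Days, and 11 members are higher in NG 7-Days.

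The 4 members that stood highest in NG 7-Days relative to NG 5-Days had ratios between 1.09 and 1.17. The abundant member on chromosome 12 at 4457674 led them. On chromosome 4 at 14011410 to 14019924 the authors' deposited table lists 4.31 in Controls, 2.31 in NG 1-Day, 10.5 in NG 5-Days and then 11.6 in NG 7-Days, and on chromosome 4 at 44425300 to 44428180 it lists 17.1, 6.96, 34.9 and 38.1. On chromosome 1 at 63299884 to 63301508 it lists 11.6, 7.25, 24.3 and 26.5. The excess of NG 7-Days over NG 5-Days was small in all 4, and only 2 of the 11 members above their NG 5-Days level were tested in that comparison, neither of them called. Of all tested transcripts, 2.52% were called higher there in the authors' deposited test.

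The highest ratio of NG 7-Days to Controls was 4.01, in a member on chromosome 2 at 6872723 to 6874706 chosen for that value. The authors' deposited table lists it at 2.73 in Controls, 1.24 in NG 1-Day, 11.1 in NG 5-Days and then 11.0 in NG 7-Days. Its level was nearly the same at the last 2 times, which sets it apart in level from the typical member. The next highest ratios were 3.27, for the member on chromosome 12 at 4457674, and 3.07, for one on chromosome 6 at 20547895 to 20550920. None of these members was tested in NG 7-Days against Controls.

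None of the 199 members tested in NG 7-Days against Controls was called in the authors' deposited test. Of all 19964 transcripts tested, 0% were called higher there, so the absence of calls is not particular to the members. None of the 199 reached an unadjusted p under 0.05 either, where 0.217% of the tested other transcripts with a level of at least 5 in NG 5-Days did. The members' smallest p was 0.0518 and their smallest adjusted p 0.41 (authors' deposited test). With the members' median standard error of 0.78 on the log2 scale, a 5.00-fold difference was needed for a call. The highest ratio was 2.69 among the tested members. In the whole group it was 4.01, in a member that was not tested. That the members stood above the control in NG 7-Days is therefore a statement about listed levels, which the deposited test did not separate from its error.

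Members were often left untested in this comparison. The authors' deposited table marks 73 of the 273 as not tested in NG 7-Days against Controls, and the same holds for 3.58% of the 11977 other transcripts with a level of at least 5 in NG 5-Days. The share not tested grew with the fold: 27 of 186 members between 1.7 and 2 times the control, 34 of 72 between 2 and 2.5 times, and 12 of 15 above that. Among all transcripts with a level of at least 5 in NG 5-Days the shares in the same bands were 22.3%, 57.9% and 88.8%, against 0.105% between 0.8 and 1.25 times and 64.7% below 0.5 times. Lack of a test thus went with the size of the difference in members and other transcripts alike, and the sources used here do not give the rule behind it.

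The untested members were the more abundant ones in NG 7-Days, with a median level of 21.7 against 7.33 in the tested members. Their median ratio to the control was 2.13, against 1.86. The table still carries p-values for them, which run between 0.019 and 0.260, and 13 of the 73 are under 0.05. Among the untested other transcripts with a level of at least 5 in NG 5-Days, 149 of 429 (34.7%) are under 0.05, in either direction. When untested lines were included in the Benjamini-Hochberg adjustment, no member was called in NG 7-Days against Controls. Of all transcripts in that adjustment, 0.0156% were called higher there.

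Most members passed the deposited test in the comparisons of the later NG conditions with NG 1-Day. In NG 5-Days against NG 1-Day, 249 of 254 tested members rose in the authors' deposited test, where 13.1% of all tested transcripts were called higher. In NG 7-Days against NG 1-Day, 162 of 199 tested members rose, where 7.44% of all tested transcripts were. The median log2 fold changes of the members were 2.41 and 1.87, against 0.04 and 0.03 in all tested transcripts. The members' median standard errors were 0.33 and 0.42, well under those of the comparisons with Controls, and fold changes of 1.96 and 2.40 were enough for a call. The rule chose members for high levels in NG 5-Days and NG 7-Days, so these counts too are a description, and both comparisons share NG 1-Day.

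In all, 161 members were called in both of these comparisons, and 33 of the 35 that rose against Controls in NG 5-Days were also called against NG 1-Day. Calls in at least one of NG 5-Days against Controls, NG 5-Days against NG 1-Day and NG 7-Days against NG 1-Day took in 252 members. The remaining 21 were called in none of the 3. The rule used these same levels, and the shares of all transcripts with such joint calls were not counted, so nothing is read from these counts. The 5 tested members not called in NG 5-Days against NG 1-Day are all low, with levels between 5.60 and 14.1 in NG 5-Days, and 4 of the 5 were above the control in NG 1-Day.

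Between the last 2 conditions, 29 of the 199 tested members fell in NG 7-Days against NG 5-Days, where 1.84% of all tested transcripts were called lower. Of the 35 members that rose in NG 5-Days against Controls, 14 were among those that fell. The median log2 fold change was -0.60 in members and -0.02 in all tested transcripts. A fall below 0.5 of the NG 5-Days level would have removed a transcript from the group, and a 1.93-fold difference was needed for a call at the median error, so calls were possible only close to that limit.

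**Figure D4:**
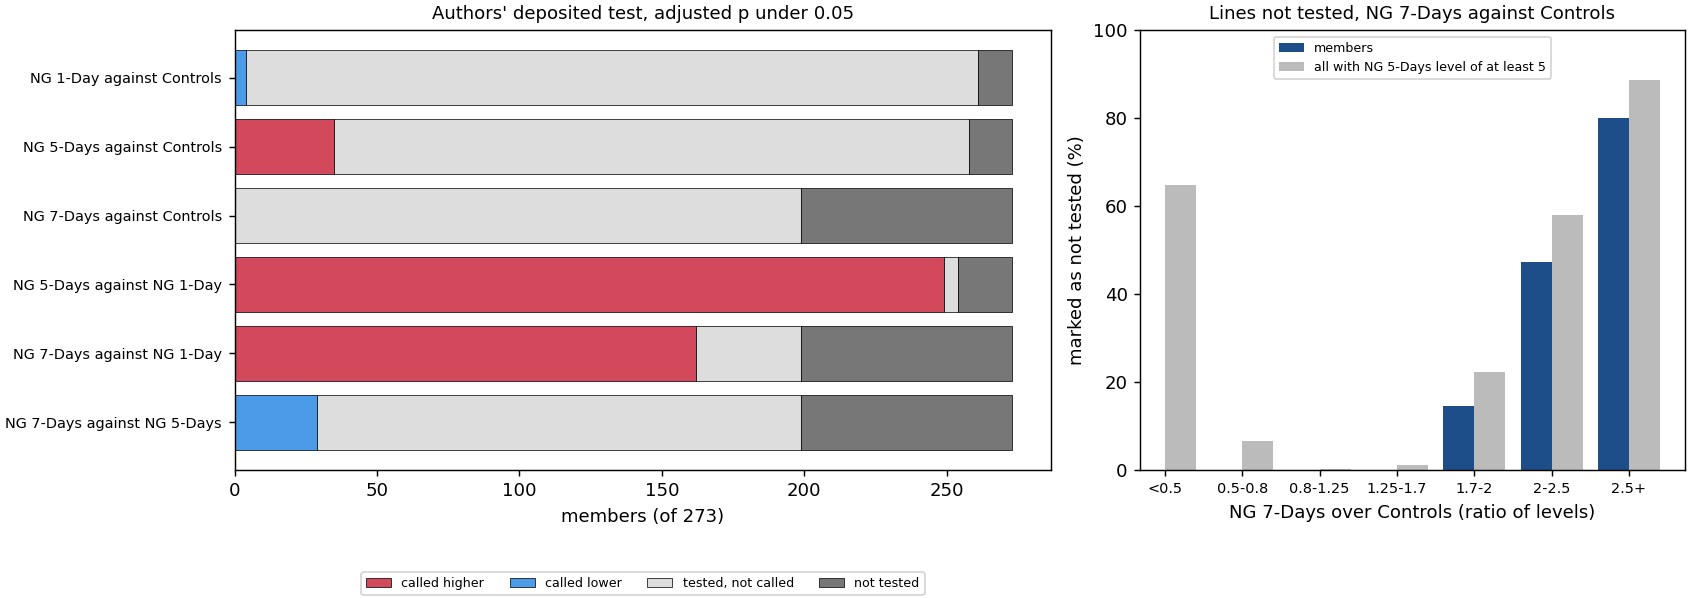
Members tested and called in each of the 6 comparisons of the authors' deposited table, as counts at an adjusted p under 0.05 (left), and the percentage of lines marked as not tested in NG 7-Days against Controls by ratio of levels (right); on the left the member with too little data is counted as not tested. Most tested members are called in both comparisons with NG 1-Day (249 of 254 and 162 of 199), against 35 of 258 in NG 5-Days against Controls, 0 of 199 in NG 7-Days against Controls and 29 of 199 in NG 7-Days against NG 5-Days.

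The members can be set beside transcripts that met the NG 5-Days conditions and failed another. Of 1002 transcripts that had at least a level of 5 and 2 times the control in NG 5-Days, 537 met the NG 1-Day condition and failed in NG 7-Days. Their median ratio of NG 1-Day to Controls was 0.686, against 0.543 in the members, and their median ratio of NG 5-Days to Controls 2.58, against 2.94. In NG 7-Days their median ratio was 1.51 to Controls and 0.554 to NG 5-Days, against 1.91 and 0.661 in the members. A typical one of the 537 was thus still listed above the control in NG 7-Days. Another 113 met the conditions of NG 5-Days and NG 7-Days but lay at or below 0.25 of the control in NG 1-Day. Their median ratios to Controls were 0.122 in NG 1-Day and 3.53 in NG 5-Days, further from the control than the members in both. Beside the 537 that failed in NG 7-Days, the members had the lower median ratio to Controls in NG 1-Day and the higher one in NG 5-Days. Their median level in NG 5-Days was lower, 13.3 against 15.5. The NG 7-Days limits use Controls and NG 5-Days, which also enter these ratios. These differences were not tested.

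In most members the control level lay between those of NG 1-Day and NG 7-Days, in 250 of the 273 (91.6%), against 65.2% of the other transcripts with a level of at least 5 in NG 5-Days. Membership puts the control below NG 7-Days in every member. These 250 are therefore the members listed below the control in NG 1-Day, and not a separate trait. The median ratio of the control to the mean of NG 1-Day and NG 7-Days was 0.814 in the members, within a range of 0.422 to 1.00, and membership itself keeps the control at or close to that mean or below it. The control was within 10% of the mean in 38 members (13.9%), against 72.2% of the other transcripts. Against the geometric mean of NG 1-Day and NG 7-Days the median ratio was 0.985 in members and 1.00 in the others. Within 10% of the geometric mean were 101 members (37.0%), against 72.1% of the others, and the members' quartiles were 0.858 and 1.15. The median near 1 thus comes with members on both sides of it.

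The members were spread over all 12 chromosomes. Chromosome 1 held the most, 34, and chromosome 12 the fewest, 10. As a share of transcripts with a level of at least 5 in NG 5-Days, members were 2.23% in all, 2.81% on chromosome 2 and 1.17% on chromosome 12. Their loci were shorter than those of other transcripts at such levels, with a median of 2822 bp against 4184 bp, and 38 of the 273 (13.9%) were under 1000 bp, against 7.83% of the others. The 537 transcripts that met the NG 5-Days and NG 1-Day conditions and failed in NG 7-Days had a median of 3188 bp. Locus length was not used by the rule, and the difference was not tested. The 12 members above 1.25 times the control in NG 1-Day had a median locus of 1104.5 bp, against 3326 bp in the 117 between 0.25 and 0.5 of the control.

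Few members were neighbours. Among all transcripts in order along the chromosomes, 13 members (4.76%) formed 6 runs of adjacent members with 7 adjacent pairs, where members are 0.778% of all transcripts. With only transcripts at a level of 1 or more in some condition counted, 20 members (7.33%) formed 9 runs, where members are 1.47% of those transcripts. Of the 6 runs of strictly adjacent members, the longest held 3, on chromosome 1 between 79837701 and 79862097. Their summed level was 11.6 in Controls, 15.1 in NG 1-Day, 43.7 in NG 5-Days and then 27.5 in NG 7-Days of the authors' deposited table. It includes the member with the largest NG 5-Days fold of the group, at 79852294, and 2 of the 3 were above the control in NG 1-Day, which is uncommon among the members.

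Among the same 6 runs, the one with the highest summed level in NG 5-Days lies on chromosome 4. Its members, at 59861132 to 59862693 and 59885275 to 59887353, were listed in the authors' deposited table at 38.2 and 20.0 in Controls, 20.7 and 7.21 in NG 1-Day, 140 and 59.1 in NG 5-Days, and 73.2 and 47.9 in NG 7-Days. The first of them rose in NG 5-Days against Controls in the deposited test, and the table marks the second as not tested. On chromosome 8 the members at 39492261 to 39493493 and 39498921 to 39503379 had a summed level of 17.6, 10.2, 52.4 and 37.2 in Controls and then NG 1-Day, NG 5-Days and NG 7-Days of the authors' deposited table. The other 3 runs are low, with summed levels between 11.0 and 17.3 in NG 5-Days. They lie on chromosome 2 between 15159614 and 15173569, and on chromosome 3 between 4590445 and 4611844 and between 45972580 and 45977063. In the chromosome 2 run and the second of the chromosome 3 runs the identifiers of both members share their last 6 digits. The loci do not overlap in any adjacent pair of members. Whether reads were split between members of such a pair was not tested, so their separate levels may be uncertain.

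A cluster of abundant members, adjacent only when transcripts under a level of 1 are passed over, stood on chromosome 6, and was chosen for mention after its values were seen. Its 3 members begin at 51915665, 51963509 and 51973269 and have loci of 531 to 591 bp. The first was listed in the authors' deposited table at 60.0 in Controls, 27.2 in NG 1-Day, 182 in NG 5-Days and then 107 in NG 7-Days, and the second at 104, 53.4, 288 and 188. The third was at 73.1, 47.7, 187 and 130. The 3 followed one course, at levels that differ by less than 2-fold in each condition.

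The first and the second rose in NG 5-Days against Controls in the authors' deposited test (adjusted p = 0.0401 and 0.0211), and the third was not called (adjusted p = 0.0619). The stretch spans 58.1 kb, and the 11 other transcripts in it reached no more than a level of 0.228 in any condition. Nearby transcripts at 51908938 and 51889642 had a like course and missed membership, with NG 7-Days at 1.64 and 1.42 times the control. The transcript at 51895270, also close by, stayed level, at 79.6, 85.4, 83.3 and 93.4 in Controls and then NG 1-Day, NG 5-Days and NG 7-Days of the authors' deposited table. A transcript further along, at 52023827, had its lowest level in NG 5-Days, 21.9 against 60.4 in Controls of the authors' deposited table. The course was thus shared by some but not all of the abundant transcripts there.

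**Figure D5:**
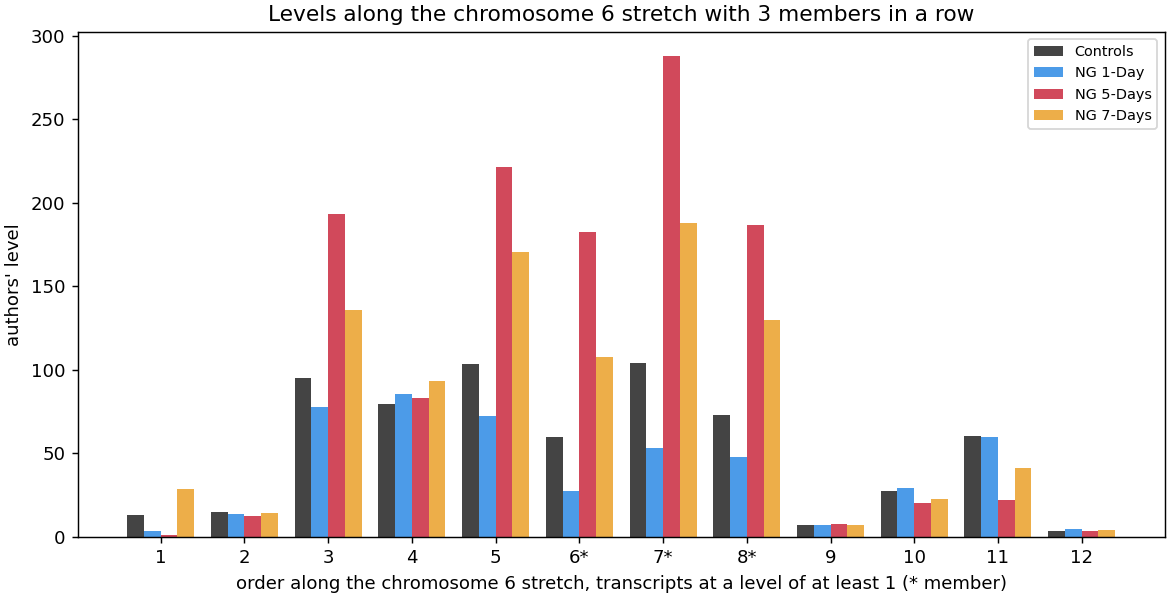
Levels in Controls and then NG 1-Day, NG 5-Days and NG 7-Days, from the authors' deposited table, of the 3 members of the chromosome 6 stretch (starred) and of nearby transcripts with a level of at least 1, as bars in order along the chromosome. The members reach 182, 288 and 187 in NG 5-Days, while the transcript at 51895270 stays between 79.6 and 93.4.

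Each limit of the rule passed through a continuous range of values. The lowest NG 5-Days level among members was 5.15, and the highest among transcripts that failed on that limit alone was 4.96. For the NG 5-Days ratio to Controls the nearest values were 2.01 inside and 1.98 outside, for the NG 7-Days ratio 1.70031 and 1.69875, for NG 7-Days over NG 5-Days 0.500099 and 0.499776, and for NG 1-Day over Controls 0.255 and 0.247. No gap in the values set the members apart. As many as 768 transcripts failed on the NG 5-Days level alone, 349 on the NG 7-Days ratio to Controls alone, 224 on the NG 5-Days ratio alone, 112 on the NG 1-Day condition alone and 75 on the NG 7-Days to NG 5-Days ratio alone.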

How the data were processed

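RNA sequencing of 11 libraries was deposited as a single table with the column layout of Cuffdiff, per the file headers. For each of 6 comparisons between 4 conditions it holds 1 deposited level of unnamed unit per transcript and condition, the authors' deposited log2 fold change and test statistic, which were read as a score because folds against a level of 0 are written as a placeholder, and the deposited p-values and q-values of the authors' test. The aligner, versions, filters, genome build and the unit of the levels are not stated in the sources, and sequencing depth is unknown. There is no value per library, so no SD or n is given. The edgeR and limma fits that need library values were not run. No source states that libraries came from separate tubers, so p-values may measure technical spread.

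The deposited test at an adjusted p under 0.05 was used. Benjamini-Hochberg adjustment over all 118862 tested lines gave the deposited q-values to within 3.32e-06. The standard error of a log2 fold change was taken as its size divided by that of the test statistic. Levels, ratios, medians, sums and neighbours were computed with Python 3.11.15 and pandas 2.3.3, after tests on simulated data. Transcripts were named by rank in NG 5-Days fold among called members (6), NG 5-Days level (6), NG 7-Days to NG 5-Days ratio (4) and NG 1-Day to control ratio (4 highest, 4 lowest), by adjacency, and at the limits of the rule; for the limits only the nearest values are given. The members and lists were chosen with earlier results of these data known. Gene lists could not be counted without gene names. Alternatives varied each limit of membership, the threshold, the adjustment, a pseudocount and the centring of levels.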

Additional observations from a re-analysis of the deposited data

How the results depend on the processing

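Of 61 alternative values, 42 lay within 1.5 times of the reported count or median log2 fold change, 19 moved and 0 changed sign, with the ratio of the control to a mix of NG conditions counted as moved at any difference. The table has no replicate spread to judge them by. The number of members, 273, was 469 with a level of at least 1 and 175 with at least 10 in NG 5-Days, 127 with NG 5-Days at 3 times the control, 434 and 87 with NG 7-Days at 1.5 and 2 times the control, 78 with NG 7-Days above 0.75 of NG 5-Days, and 156 with NG 1-Day above 0.5 of the control. Median-centred levels gave 215 members, 213 of them shared. A pseudocount of 1 gave 213, of which 157 were shared. At an adjusted p under 0.01, 0 members were called lower in NG 1-Day against Controls (0.533% of all tested transcripts), 10 higher in NG 5-Days against Controls (0.163%) and 4 lower in NG 7-Days against NG 5-Days (0.804%). Adjusting each comparison alone left 0 members called lower in NG 1-Day against Controls (0.420%), and 6 called higher in NG 5-Days against Controls (0.114%). With a pseudocount of 5 the median log2 fold changes against Controls were -0.35 for NG 1-Day, 0.92 for NG 5-Days and 0.54 for NG 7-Days, in place of -0.88, 1.56 and 0.93, those against NG 1-Day 1.22 for NG 5-Days and 0.85 for NG 7-Days, in place of 2.41 and 1.87, and that of NG 7-Days against NG 5-Days -0.40, in place of -0.60. A pseudocount shrinks the folds of low transcripts by construction. The control stood at 0.911 of a fitted mix of the NG conditions, in place of 0.814 of the mean. The fitted weights were 0.607 for NG 1-Day, 0.020 for NG 5-Days and 0.367 for NG 7-Days. Over all transcripts at a level of at least 1 in every condition the median of that fitted ratio was 0.998. Adjacent pairs numbered 11 among transcripts at a level of 1 or more. The causes of the other shifts were not tested.

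No paired analysis was possible because the deposited table holds no value per library. For the same reason no library was left out. Depth per library is unknown, so what it limits could not be measured.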
